A study of Mus musculus and Homo sapiens with 9 samples.

Results

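Of the 102544 peaks on the main chromosomes in 9 CUT&Tag lists, 15040 lay deep inside introns. A peak was counted here when its midpoint was more than 10 kb from every annotated transcription start site (TSS) and inside the body of a protein-coding gene, when its interval touched no annotated exon, and when that gene's 3' end was more than 1 kb away. GENCODE M21 was used for the mouse lists (mm10) and GENCODE v44 for the human lists (hg38). These peaks are called distal intronic peaks below. The 5 lists from mouse embryonic fibroblasts (MEFs) held 6804 of them and the 4 lists from the human embryonic kidney line HEK293 held 8236. The rule used only position, so that the strength, sequence and recurrence of the peaks were free to vary.

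CUT&Tag cuts and tags chromatin where an antibody has bound, and the S9.6 antibody recognises RNA-DNA hybrids. The study mapped R-loops with S9.6 in MEFs wild type for Mcm8 (WT), in Mcm8 knockout MEFs (KO), and in MEFs with a control shRNA (shControl) or with a Ddx5 knockdown (shDdx5). A library of wild-type MEFs without primary antibody was the MEF control. In wild-type HEK293 cells it profiled mouse IgG, anti-FLAG after transfection of a FLAG-MCM8 plasmid, S9.6, and S9.6 after transfection of an RNH1 plasmid, which the study describes as RNase H1. The KO MEFs came from mice that lack an exon of Mcm8, the MEFs were immortalised with SV40, the Ddx5 shRNA was delivered by adenovirus, and FLAG-MCM8 was overexpressed from a plasmid. Each group was 1 library, so no difference between conditions has a replicate check, and all intervals below are 95% intervals that cover counting error only.

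R-loops form when an RNA pairs with a strand of the DNA duplex and leaves the other strand unpaired. They are best known at promoters and gene ends, where RNA polymerase starts, pauses and terminates. The interior of a long intron is crossed by elongating polymerase and can also carry enhancers, which are transcribed themselves. MCM8 is a helicase of the MCM family with roles in homologous recombination, DDX5 is a DEAD-box RNA helicase, and RNase H1 degrades the RNA of RNA-DNA hybrids.

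The sequences under a few of these peaks are given first, as examples of single sites. All are reference sequence of the forward strand around a peak summit. At 2 of the 6 named sites that held a distal intronic peak in each of the 4 S9.6 MEF lists, the window held stretches that match ribosomal DNA. In these mm10 windows the capitals mark runs of at least 20 bases identical to the human ribosomal DNA unit from 18S to 28S.
Camk1d, chr2:5379237-5379437: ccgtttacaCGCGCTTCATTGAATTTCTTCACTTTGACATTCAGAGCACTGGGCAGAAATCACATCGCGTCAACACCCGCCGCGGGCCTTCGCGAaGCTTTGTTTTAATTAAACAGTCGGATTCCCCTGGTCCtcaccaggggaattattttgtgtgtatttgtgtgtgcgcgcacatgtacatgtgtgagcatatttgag
Cntnap5b, chr1:100180098-100180298: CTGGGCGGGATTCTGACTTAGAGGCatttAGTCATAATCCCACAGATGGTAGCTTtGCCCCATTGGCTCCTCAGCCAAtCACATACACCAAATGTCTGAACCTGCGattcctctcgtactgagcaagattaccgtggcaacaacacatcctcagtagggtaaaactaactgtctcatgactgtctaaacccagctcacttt
The Camk1d window shared 123 bases with ribosomal DNA in such runs, and the Cntnap5b window 100. None of 98828 windows of the same length tiled over the eligible intronic space of mm10 held 40 or more such bases. That limit was reached by 2 of 902 WT, 2 of 1450 KO, 2 of 2035 shControl and 2 of 1528 shDdx5 distal intronic peaks. It was also reached by 2 of 1031 WT peaks as far from a TSS but outside protein-coding genes.

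At the strongest human distal intronic peaks the window was usually a tandem repeat. In these hg38 windows the capitals mark every other copy of the repeated unit.
SERINC2, chr1:31431809-31431909: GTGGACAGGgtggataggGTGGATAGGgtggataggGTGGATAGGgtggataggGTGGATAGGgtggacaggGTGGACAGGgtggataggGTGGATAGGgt
TBC1D22A, chr22:47170694-47170794: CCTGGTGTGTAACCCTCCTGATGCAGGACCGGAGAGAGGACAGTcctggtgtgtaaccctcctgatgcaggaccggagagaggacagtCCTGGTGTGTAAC
The unit at SERINC2 was 9 bases long, and 96.7% of its bases matched the base 1 unit further on. The unit at TBC1D22A was 44 bases long and matched at 100% of bases.

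Other windows held the AP-1 sequence, which FOS and JUN family proteins bind and which was more frequent in the S9.6 MEF lists than in the introns around. In these mm10 windows the capitals mark TGANTCA, searched on both strands.
Tram2, chr1:21014542-21014742: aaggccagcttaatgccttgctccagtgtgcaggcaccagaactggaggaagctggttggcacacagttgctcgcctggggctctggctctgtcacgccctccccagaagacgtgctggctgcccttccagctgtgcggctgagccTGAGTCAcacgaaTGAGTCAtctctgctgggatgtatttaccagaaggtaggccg
Itgb3, chr11:104624880-104625080: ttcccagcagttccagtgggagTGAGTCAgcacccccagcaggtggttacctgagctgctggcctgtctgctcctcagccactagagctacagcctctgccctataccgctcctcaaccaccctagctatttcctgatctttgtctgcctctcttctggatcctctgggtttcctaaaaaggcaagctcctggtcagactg
Tram2 held a distal intronic peak in all 4 S9.6 MEF lists, and the window is that of the shDdx5 summit, the strongest by q. The window of its WT summit held no match. The Itgb3 window was centred on the summit of a KO peak that had no WT counterpart. That peak began at base 104624935, so the marked match lay just outside it. The shDdx5 peak there began at base 104624850 and covered the match.

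Distal intronic peaks made up 902 of 6481 WT peaks, which is 13.9% (13.1 to 14.8). They made up 1450 of 9605 KO peaks (15.1%, 14.4 to 15.8), 2035 of 12259 shControl peaks (16.6%, 16.0 to 17.3) and 1528 of 11768 shDdx5 peaks (13.0%, 12.4 to 13.6). In the no-antibody list they were 889 of 4314 peaks, or 20.6% (19.4 to 21.8). The bases of mm10 at which a peak of 350 bp would meet the rule were 18.7% of the known genome, so the S9.6 lists fell below this share and the no-antibody list lay above it. In HEK293 the shares were 18.8% for IgG (3230 of 17178), 16.2% for FLAG-MCM8 (2149 of 13295), 10.48% for S9.6 (1588 of 15147) and 10.2% for RNH1 (1269 of 12497), against 19.97% of hg38. Per megabase of eligible space, S9.6 in HEK293 had 2.71 distal intronic peaks, against 5.77 other peaks per megabase elsewhere, a ratio of 0.469 (0.446 to 0.494). The same ratio was 0.453 (0.427 to 0.480) for RNH1, 0.773 (0.738 to 0.809) for FLAG-MCM8 and 0.928 (0.893 to 0.964) for IgG. Among the MEF lists it was 0.704 for WT, 0.774 for KO, 0.867 for shControl and 0.650 for shDdx5, and 1.13 (1.05 to 1.22) without antibody. MEF and HEK293 lists were called at different thresholds and are not compared with each other.

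**Figure D1:**
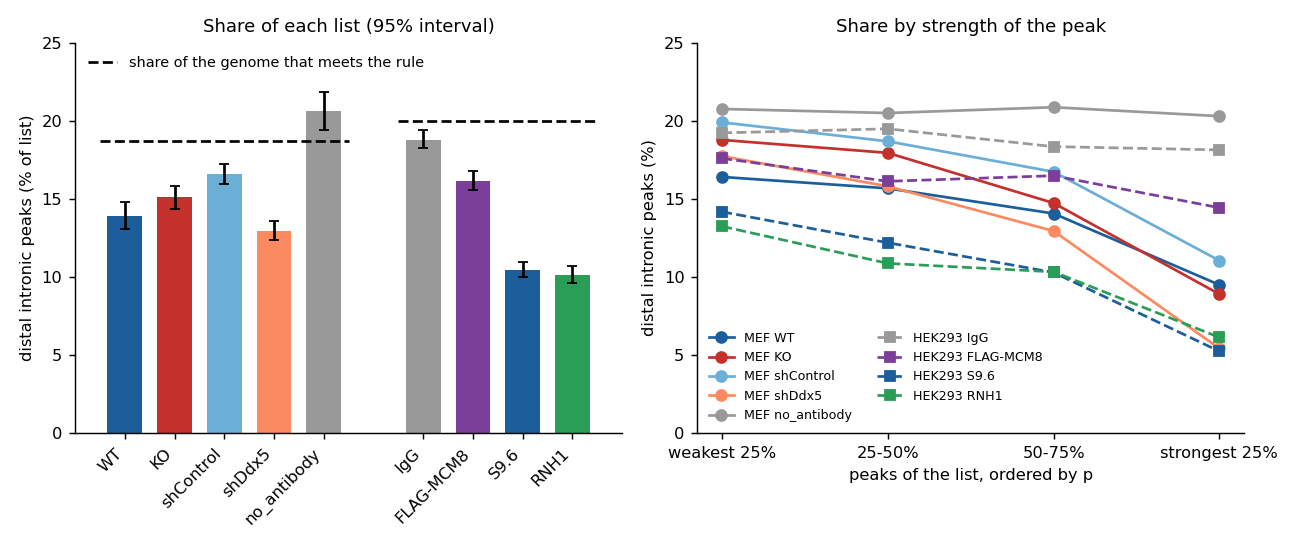
Left, distal intronic peaks as a share of each list (bars, percent) with 95% Wilson intervals, and the share of the genome that meets the rule (dashed lines, 18.7% for mm10 and 19.97% for hg38). Right, the same share among the weakest to strongest 25% of the peaks of each list by p. The lines of the no-antibody and IgG lists stay near their start, and those of the S9.6 lists fall.

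The share depended on how strong the peaks were. In WT it fell from 16.4% among the weakest 25% of peaks by p to 9.51% among the strongest 25%. In KO it fell from 18.8% to 8.91%, in shControl from 19.9% to 11.1%, and in shDdx5 from 17.7% to 5.44%. It fell from 14.2% to 5.26% in HEK293 S9.6 and from 13.3% to 6.15% in RNH1. In the no-antibody list (20.8% to 20.3%) and in IgG (19.2% to 18.1%) it moved little, and FLAG-MCM8 lay between (17.6% to 14.4%). The median distal intronic peak rested on few fragments: a pileup of 9 (WT), 8 (KO), 8 (shControl), 9 (shDdx5) and 4 (no antibody), and of 19, 13, 17 and 18 in IgG, FLAG-MCM8, S9.6 and RNH1. Median fold enrichments over the local background were 3.51, 3.47, 3.27 and 3.39 in the 4 S9.6 MEF lists and 3.36 without antibody. A q value of 0.05 or lower was reached by 23.3% of the WT, 23.7% of the KO, 19.5% of the shControl and 48.0% of the shDdx5 distal intronic peaks, against 34.2%, 38.4%, 29.8% and 62.4% of the other peaks of those lists. In the no-antibody list the shares were 8.66% and 8.79%. Peaks as far from a TSS but outside protein-coding genes gave shares like those of the distal intronic peaks. They were 22.5% (WT), 23.1% (KO), 19.5% (shControl), 49.8% (shDdx5) and 9.01% (no antibody).

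Peaks just inside and just outside the TSS limit had similar folds. Among intronic WT peaks, 140 lay 8 to 10 kb from a TSS with a median fold of 3.40, and 104 lay 10 to 12 kb away with a median fold of 3.34. In HEK293 S9.6 the counts were 271 and 217 and the median folds 4.27 and 4.27. The widest gap was in the no-antibody list, with 78 peaks at a median of 3.63 outside and 87 at 3.36 inside the limit.

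The MEF comparisons ask whether the loss of MCM8 or DDX5 changed this group. KO had 1450 distal intronic peaks and WT 902, a ratio of 1.61 (1.48 to 1.75). The whole KO list was longer too, and the share of distal intronic peaks was higher by 1.18 percentage points (0.0654 to 2.28). That difference was gone once a q of at most 0.05 was asked for, when 344 of 3472 KO and 210 of 2118 WT peaks were distal intronic (-0.00718 points, -1.66 to 1.58). Taking the strongest 4314 peaks of each list gave 499 in KO and 549 in WT. shDdx5 had 1528 distal intronic peaks and shControl 2035, a ratio of 0.751 (0.703 to 0.802), and a share that was 3.62 percentage points lower (2.72 to 4.51 lower). The direction of the count turned with the threshold: at a q of 0.05 or lower shDdx5 had 733 and shControl 397, a ratio of 1.85 (1.63 to 2.09). The shDdx5 list as a whole reached low q values more often, as given above, and its part in this turn was not tested.

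In HEK293 the RNH1 list had fewer distal intronic peaks than S9.6, with a ratio of 0.799 (0.742 to 0.860). The share of the list was 10.2% against 10.48%, a difference of -0.330 percentage points (-1.05 to 0.393), so the count and the list fell together. When the strongest 12497 peaks of each list were taken, the counts were 1269 and 1233. FLAG-MCM8 had a share 2.64 points below IgG (1.78 to 3.49 below).

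Few distal intronic peaks were found again in a second list. Of the 1450 KO peaks, 102 shared at least 1 bp with a WT peak, which is 7.03% (5.83 to 8.47), against 16.5% of all KO peaks. The difference from the other KO peaks was -11.1 percentage points (-12.6 to -9.49). Of the 902 WT peaks, 101 (11.2%) had a KO peak, against 24.5% of all WT peaks. Of the 1528 shDdx5 peaks, 142 (9.29%) had a shControl peak, against 20.2% of all shDdx5 peaks, and the difference from the other peaks was -12.5 points (-14.1 to -10.8). Of the 2035 shControl peaks, 143 (7.03%) had a shDdx5 peak, against 19.4% of all. Peaks as far from a TSS but outside protein-coding genes, called far intergenic here, gave a like value: 7.22% of those of KO had a WT peak, while 33.7% of the KO peaks within 1 kb of a TSS did. The no-antibody list shared almost nothing with WT: 5 of 902 WT distal intronic peaks (0.554%) overlapped it, against 1.23% of all WT peaks. Overlap rose with strength, from 3.98% of the weakest 25% to 22.6% of the strongest 25% of the WT peaks when set against KO.

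In HEK293, 231 of the 1588 S9.6 distal intronic peaks had an RNH1 peak (14.6%, 12.9 to 16.4), against 28.9% of all S9.6 peaks, a difference of -16.0 points (-17.9 to -14.1) from the other peaks. Of the 2149 FLAG-MCM8 peaks, 127 had an S9.6 peak (5.91%, 4.99 to 6.99), against 13.5% of all FLAG-MCM8 peaks, and -9.06 points (-10.2 to -7.80) from the others. Among IgG distal intronic peaks 113 of 3230 (3.50%) had an S9.6 peak. Among the other peaks the shares were 15.0% for FLAG-MCM8 and 5.13% for IgG, a wider gap. Between the distal intronic peaks FLAG-MCM8 exceeded IgG by 2.41 points (1.26 to 3.64). The excess was 1.47 points (0.546 to 2.48) without tandem-repeat windows, 1.40 points (0.0616 to 2.86) beyond 20 kb from a TSS, and 5.38 points (3.35 to 7.70) at a q of at most 1e-05. FLAG-MCM8 distal intronic peaks overlapped IgG peaks almost as often as S9.6 peaks: 108 did (5.03%), against 5.01% of all FLAG-MCM8 peaks. Overlap with IgG was the exception to the pattern. It was higher among S9.6 distal intronic peaks, at 117 of 1588 (7.37%), than the 5.49% of all S9.6 peaks, by 2.102 points over the other peaks (0.855 to 3.54). Far intergenic peaks gave like values here too. Of those of S9.6, 7.89% had an IgG peak and 15.6% an RNH1 peak. An S9.6 peak stood at 5.89% of those of FLAG-MCM8 and at 2.61% of those of IgG.

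**Figure D2:**
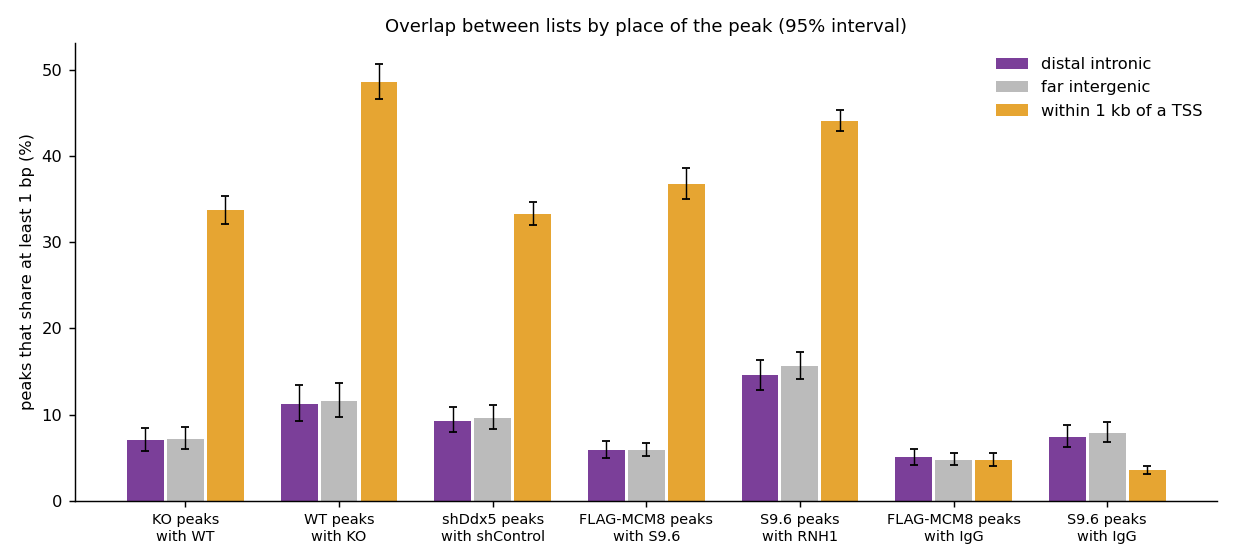
Share of peaks (percent, with 95% Wilson intervals) that shared at least 1 bp with a peak of a second list, for distal intronic peaks, peaks more than 10 kb from a TSS outside protein-coding genes, and peaks within 1 kb of a TSS. For KO peaks set against WT the bars stand at 7.03%, 7.22% and 33.7%, and for S9.6 set against IgG the promoter bar is the lowest at 3.57%.

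KO peaks without a WT peak and shDdx5 peaks without a shControl peak are the peaks found only after each MEF perturbation. Among 1348 distal intronic KO-only peaks, 44 met one of shDdx5 only (3.26%, 2.44 to 4.35), against 10.4% of all KO-only peaks. WT-only distal intronic peaks did so in 41 of 801 cases (5.12%, 3.80 to 6.87), which was more often by 1.86 points (0.141 to 3.79). That difference was lost or turned under 7 of the 12 alternative settings. Of the other WT-only peaks, 420 of 4092 (10.3%) met a shDdx5-only peak. The KO-only distal intronic peaks met shControl-only peaks in 37 cases (2.75%), against 306 of 6673 other KO-only peaks (4.59%). For the KO-only distal intronic peaks, the overlap with shDdx5-only less that with shControl-only peaks was 0.519 points (-0.788 to 1.84). The 3 strongest of the 44 lay in Itgb3 (fold 4.98 in KO and 3.57 in shDdx5), the integrin beta 3 gene, in Glis1 (4.58 and 3.43), which encodes a zinc-finger factor, and in Igdcc3 (4.87 and 3.18). At none of the 3 did WT, shControl or the no-antibody library have a peak.

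Joined over lists, the distal intronic peaks of the 4 S9.6 MEF lists formed 5423 sites, of which 93.01% were in 1 list, 285 in 2, 77 in 3 and 17 in all 4. Of the other sites in these lists, 82.9% were in 1 list and 832 of 26733 in all 4. None of the 17 had a no-antibody peak, and 48 of the 832 other sites in all 4 lists did. The no-antibody library was shallow, at roughly 719.8 fragments per Mb against 5729 to 7001 in the S9.6 MEF lists. The strongest of the 17 by far lay in Kctd16, a gene for an auxiliary subunit of GABA-B receptors, 37932 bp from a TSS. The WT fold there was 28.7, the KO fold 28.8, the shControl fold 27.3 and the shDdx5 fold 21.9, and it was the distal intronic peak with the highest −log10 q of each of those lists. Camk1d, a calcium/calmodulin-dependent kinase gene whose ribosomal-like window is printed above, followed with folds of 14.8, 17.8, 11.3 and 13.2. In Ank2, the ankyrin-B gene, the folds were 7.62, 7.66, 4.87 and 6.52. The site in Cntnap5b, the second with a ribosomal-like window, had folds of 6.73, 5.64, 4.497 and 5.61. In Itpkb, which encodes an inositol-trisphosphate kinase, they were 4.06, 5.43, 5.74 and 3.90, and in Arid1b, a chromatin remodeller subunit, 5.30, 4.35, 3.98 and 6.84. These folds depend on the depth of each library, and their order over the lists is not read.

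The peaks were richer in GC than the introns around them. The median GC content of the summit window, 100 bases to either side, was 48.3% (WT), 47.8% (KO), 47.8% (shControl) and 48.8% (shDdx5), against 43.8% without antibody and 41.3% in windows tiled over the eligible space. In HEK293 it was 44.3% (IgG), 48.8% (FLAG-MCM8), 53.2% (S9.6) and 52.7% (RNH1), against 39.3% in the space. S9.6 peaks within 1 kb of a TSS had 64.2%. Far intergenic peaks had like medians, at 48.3% (WT), 47.8% (KO), 47.3% (shControl), 48.8% (shDdx5) and 54.2% (HEK293 S9.6). Few distal intronic windows looked like CpG islands, with an observed-to-expected CpG ratio of 0.6 or more in 1.996% of WT and 5.92% of HEK293 S9.6 windows, against 62.2% and 62.4% at promoters. The GC skew along the host gene, the excess of G over C on the coding strand, had a median of 0.0204 in WT and 0.0213 in S9.6, with the eligible space at 0.0118 and 0.0182. A G-quadruplex pattern of 4 runs of 3 or more G with 1 to 7 bases between them stood in 5.67% of S9.6 and 6.30% of RNH1 windows, against 1.65% of the space of hg38, and in 2.88% of WT windows, against 3.18% of the space of mm10. Once the space was weighted to the GC content of the peaks it held the pattern in 6.91% for S9.6, 6.75% for RNH1 and 6.44% for WT, so no list of these 3 lay above its weighted share.

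The AP-1 sequence TGANTCA was more frequent in the MEF S9.6 peaks. It stood in 10.3% of WT windows (8.49 to 12.5) and 10.8% of KO windows (9.27 to 12.5). The shares were 7.96% in shControl (6.86 to 9.22) and 11.4% in shDdx5 (9.89 to 13.1). The no-antibody windows held it in 5.06% (3.80 to 6.71), and 6.06% of windows over the eligible space did. Weighting the space to the GC content of the peaks gave 5.64% for WT and 5.57% for shDdx5, which lie below the intervals of those lists. Among the strongest 25% of the distal intronic peaks the share was 16.4% (WT), 18.5% (KO), 10.4% (shControl) and 17.5% (shDdx5), with 6.76% for no antibody. Far intergenic peaks held it in 11.35% (WT) and 12% (KO), and peaks within 1 kb of a TSS in 3.53% and 4.46%. With each site taken at its summit with the highest −log10 q, sites in 2 or more of the 4 lists held it in 77 of 379 cases (20.3%, 16.6 to 24.7), and sites in 1 list in 420 of 5044 (8.33%, 7.60 to 9.12). Recurrent sites are also the stronger ones, and the 2 properties were not separated. In HEK293 the shares were 5.77% to 7.12% in the 4 lists, against 6.46% of the space, and recurrent sites held the sequence in 18 of 326 cases (5.52%). S9.6 (7.12%, 5.95 to 8.49) lay above the 5.01% of the space weighted to its GC content, and RNH1 (6.62%, 5.38 to 8.12) above its 5.06%. The strongest 25% held the sequence in 9.57% of S9.6 and 5.99% of RNH1 windows.

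**Figure D3:**
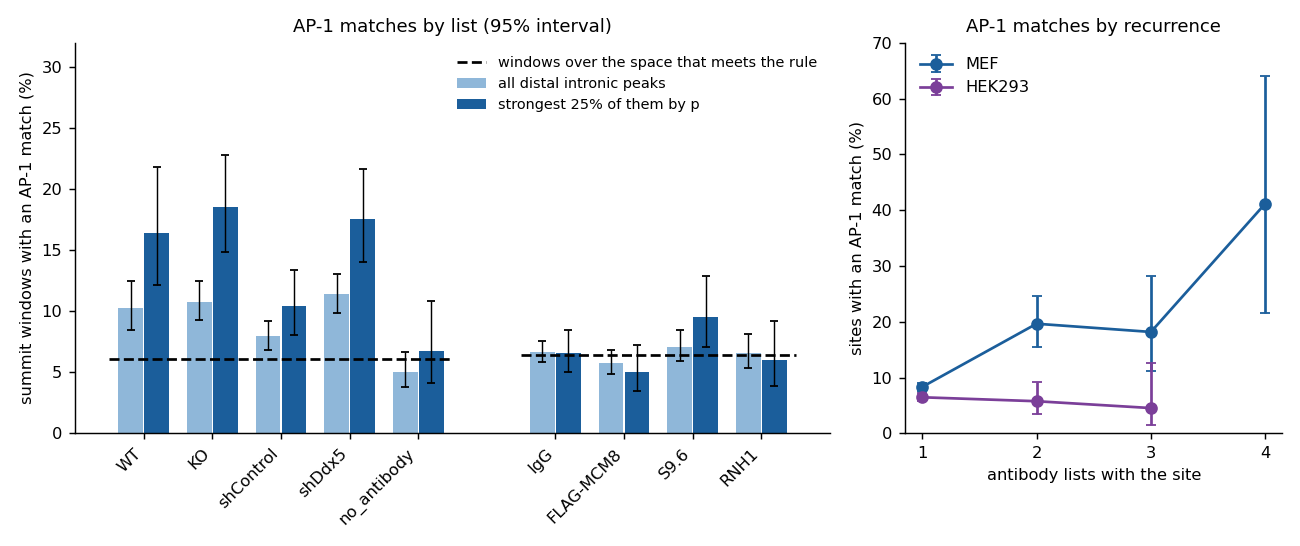
Left, share of summit windows (percent, with 95% Wilson intervals) that hold TGANTCA, for all distal intronic peaks of a list and for the strongest 25% by p, with the share of windows tiled over the eligible space (dashed lines, 6.06% and 6.46%). Right, the share of sites with the sequence by the number of antibody lists that hold the site. The S9.6 MEF bars stand above their line and the bar for all no-antibody peaks stands at 5.06%.

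Other motifs were examined in the same windows. ACATTCC, the TEAD sequence, stood in 3.55% of WT windows (2.52 to 4.96) and 4.48% of KO windows (3.53 to 5.67), against 2.74% of the space. It was in 3.05% of shControl and 3.99% of shDdx5 windows. Among the strongest 25% the shares were 7.11% (WT), 7.46% (KO), 2.56% (shControl) and 5.497% (shDdx5). TGTGGTT, the RUNX sequence, was in 4.88% of WT windows and 4.65% of the space. The CTCF core letters AGNNGGC were in 36.4% of WT windows, and in 35.8% of the space once weighted to the same GC content. These letters can occur inside longer sites of other factors, and a match does not show that a factor was bound.

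Tandem repeats, counted as windows in which 25% or more of the 12-base words occur more than once, stood in 8.88% of HEK293 S9.6 distal intronic peaks (7.58 to 10.4), 12.2% of RNH1 (10.53 to 14.1), 5.72% of FLAG-MCM8 (4.82 to 6.79) and 2.82% of IgG (2.30 to 3.45), against 0.738% of the eligible space. Far intergenic peaks gave like shares, at 8.30% (S9.6), 11.2% (RNH1), 6.155% (FLAG-MCM8) and 2.22% (IgG). Among the 100 strongest distal intronic peaks by p the counts were 41 in S9.6, 47 in RNH1, 41 in FLAG-MCM8 and 27 in IgG. In the strongest 20 they were 16, 15, 17 and 12. In MEFs, where 1.98% of the space were repeats, WT had 7 of 902 (0.776%) and KO 10 of 1450 (0.690%), both below the space. The shares were 2.65% in shControl (2.04 to 3.45), 2.88% in shDdx5 (2.15 to 3.84) and 3.49% without antibody (2.47 to 4.91), all above it. The strongest of all was the site in SERINC2, a serine incorporator gene, with folds of 13.9 (IgG), 18.6 (FLAG-MCM8), 18.1 (S9.6) and 19.5 (RNH1). The repeat in TBC1D22A, a gene with a Rab GTPase-activating domain, had folds of 7.12 in IgG, 13.3 in S9.6 and 14.1 in RNH1 and no FLAG-MCM8 peak. In SWAP70 the folds were 6.84, 8.65, 9.23 and 9.59 in the order IgG, FLAG-MCM8, S9.6 and RNH1. The leading sites thus stood in the IgG list as well.

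Overlap between the HEK293 lists was higher at these repeats. Of the 127 FLAG-MCM8 distal intronic peaks with an S9.6 peak, 51 were tandem repeats. With a repeat, 41.5% (33.1 to 50.3) of FLAG-MCM8 peaks had an S9.6 peak and 33.3% (25.6 to 42.1) an IgG peak. Without, 3.75% (3.01 to 4.67) and 3.31% (2.61 to 4.18) did. S9.6 peaks had an RNH1 peak in 52.5% with a repeat and in 10.9% without. The higher overlap of S9.6 distal intronic peaks with IgG shrank to 0.522 points (-0.518 to 1.78) once windows with a repeat were left out of all peaks. Of the 66 sites in FLAG-MCM8, S9.6 and RNH1, 33 had an IgG peak, and 27 of these 33 were repeats, against 12 of the 33 without IgG. How reads were placed in such repeats was not tested.

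**Figure D4:**
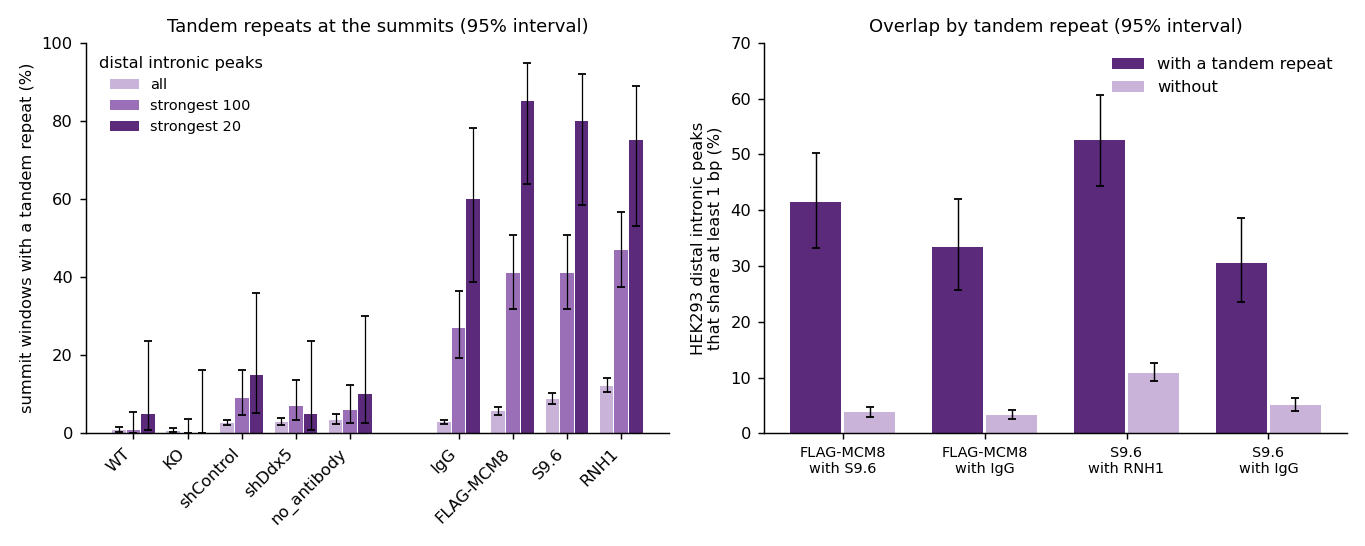
Left, share of distal intronic summit windows with a tandem repeat (percent, with 95% Wilson intervals) among all peaks of a list, the strongest 100 and the strongest 20 by p. Right, share of HEK293 distal intronic peaks with a peak in a second list, for windows with and without a tandem repeat. In FLAG-MCM8 17 of the strongest 20 windows were repeats, and the right-hand bars for S9.6 set against RNH1 stand at 52.5% and 10.9%.

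Of the 2149 FLAG-MCM8 distal intronic peaks, 85 met an S9.6 peak but none of IgG. Peaks with an IgG peak were then left out of both lists. An S9.6 peak stood at 85 of 2041 distal intronic and 1378 of 10588 other FLAG-MCM8 peaks. The difference was -8.85 points (-9.87 to -7.71). The first of the 85 by q lay in a repeat of TTC34, with folds of 4.18 (FLAG-MCM8) and 4.40 (S9.6). Close by in TTC34, also in a repeat, lay the distal intronic IgG peak with the next highest −log10 q after SERINC2 (fold 3.80), and a single RNH1 peak (5.46) spanned both places. The next were in PIEZO2, which encodes a mechanosensitive channel and where the window was a repeat too (9.96 in FLAG-MCM8 and 4.58 in S9.6), and in LAMC1, the laminin gamma 1 gene (8.12 and 4.05), and neither had an RNH1 peak. Of the 1588 S9.6 peaks, 1357 had no RNH1 peak. Their strongest were in PDZD7, a scaffold gene of hair cells (fold 4.98), in ETV1, an ETS factor gene (8.23, with a FLAG-MCM8 peak of 4.98), and in a repeat of BCAS3 (8.24). The no-antibody list was led by single-list peaks in Sipa1l1 (fold 7.22) and Glt1d1 (6.89).

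Within the eligible introns the S9.6 peaks thinned out with distance from a TSS. Per megabase, WT had 1.29 times its mean density at 10 to 20 kb (1.16 to 1.42) and 0.388 times at more than 100 kb (0.276 to 0.530). KO fell from 1.35 to 0.402, shControl from 1.23 to 0.423 and shDdx5 from 1.27 to 0.376. In the no-antibody list it went from 1.03 to 0.817 (0.649 to 1.02). HEK293 S9.6 fell from 1.36 to 0.344 and RNH1 from 1.44 to 0.294, while FLAG-MCM8 went from 1.12 to 0.715 and IgG from 1.02 to 0.881. Density also rose with GC content, which varies along genes: windows of 50% GC or more had 2.95 times the mean density in WT, 4.52 times in S9.6 and 1.71 times without antibody. The parts of distance and GC content were not separated.

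**Figure D5:**
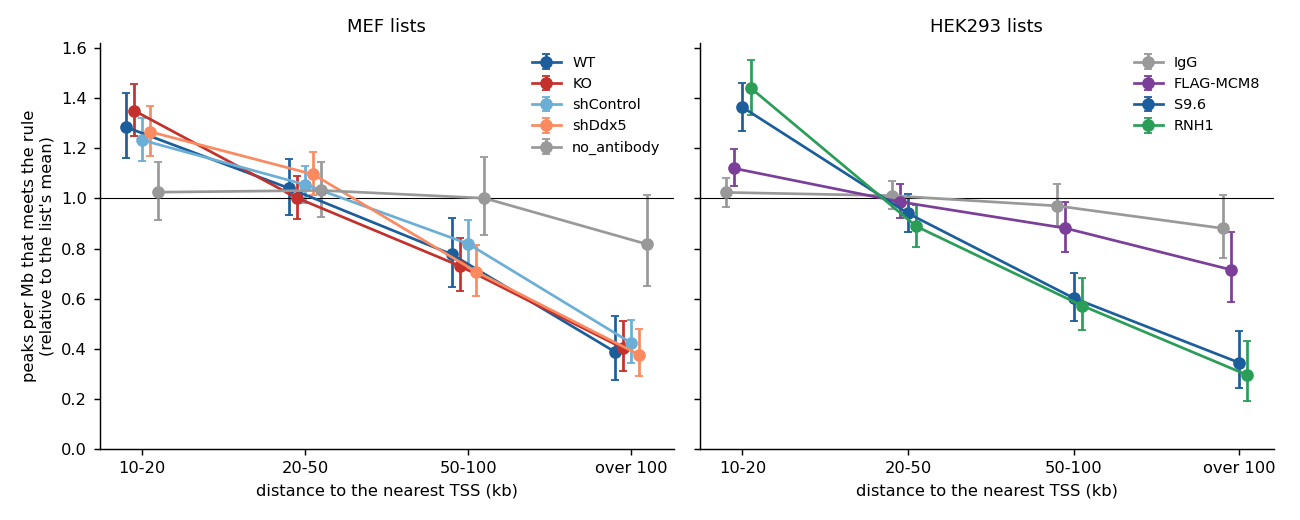
Distal intronic peaks per megabase of eligible space in each band of distance to the nearest TSS (kb), relative to the mean of the list (line at 1), with 95% Poisson intervals, for the MEF lists (left) and the HEK293 lists (right). At more than 100 kb the S9.6 lists stand between 0.294 and 0.423, the no-antibody list at 0.817 and IgG at 0.881.

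Distal intronic peaks of S9.6 lay more often than their space in genes with a peak at the promoter. A promoter peak in at least 1 S9.6 MEF list stood at the host gene of 37.0% of WT distal intronic peaks (33.9 to 40.2), 34.3% of KO, 33.8% of shControl and 34.2% of shDdx5. The same genes hold 23.8% of the eligible space and 28.4% of the no-antibody peaks (25.5 to 31.4). In HEK293, host genes with an S9.6 or RNH1 promoter peak held 29.9% of S9.6 and 30.6% of RNH1 distal intronic peaks, 25.3% of FLAG-MCM8 and 23.8% of IgG, against 22.1% of the space. Most host genes had a single peak, as in 559 of 699 for WT and 839 of 1113 for HEK293 S9.6.

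The host with the most peaks in all 4 S9.6 MEF lists was Gm20388, a readthrough gene model of 4435 kb on mouse chromosome 8 that spans many shorter genes, with 9 WT, 19 KO, 26 shControl and 19 shDdx5 peaks and 1 without antibody. None of these peaks lay inside another protein-coding gene, so they count as intronic only through this model. Rbms3, an RNA-binding protein gene, had 6, 11, 11 and 9 and 4 without antibody. Camta1, a calmodulin-binding transcription activator gene, had 6, 6, 10 and 5 and 1 without antibody. Rbfox3, a neuronal splicing factor gene, had 0, 1, 3 and 10. Cdh13, a cadherin gene, had 2 WT, 2 KO, 11 shControl and 9 shDdx5 peaks, and Lpp, a gene of focal adhesions, 4, 7, 2 and 5. The no-antibody list had its most in Negr1 (5), where shControl and shDdx5 had 2 each and WT and KO 0. Several genes followed with 4, among them Agbl1, where the S9.6 lists had 0, Csmd1, with 1 in each of KO, shControl and shDdx5, and Rbms3. In HEK293 PTPRN2, a receptor-type phosphatase gene, held 14 IgG, 20 FLAG-MCM8, 16 S9.6 and 11 RNH1 peaks. GSE1 held 14 in S9.6 and 9 in RNH1 against 7 in IgG and 3 in FLAG-MCM8, in only 290 kb of eligible intron. RBFOX3 held 11 in S9.6 and 4 in RNH1, and RBFOX1 10 and 9 with 19 in IgG and 11 in FLAG-MCM8. DLG2 and AGBL4 led IgG with 20 and 19 and held 2 and 1 in S9.6, and EYS held 11 in FLAG-MCM8 and 6 in IgG. These counts also depend on how much eligible intron a gene has. Relative to the mean density of FLAG-MCM8, EYS (1665 kb) stood at 1.80 (0.900 to 3.23) and RBFOX1 (1865 kb) at 1.61 (0.804 to 2.88). Both intervals include the mean. PTPRN2 (855 kb) stood at 6.39 (3.90 to 9.86).

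Common fragile sites lie in very long genes that replicate late and break under replication stress. Of 22 such genes, 7 held a WT, 9 a KO, 12 a shControl and 9 a shDdx5 distal intronic peak, and 16 a no-antibody peak. They held 0.887% of WT, 0.966% of KO, 1.62% of shControl and 1.24% of shDdx5 peaks, against 4.49% of the eligible space and 3.94% of the no-antibody peaks. In HEK293 they held 1.51% of S9.6, 1.66% of RNH1, 2.61% of FLAG-MCM8 and 3.25% of IgG peaks, against 3.89% of the space. Long host genes of any kind also held few S9.6 peaks. In genes over 1 Mb the density relative to the list mean was 0.324 (WT), 0.341 (KO), 0.501 (shControl) and 0.378 (shDdx5). It was 0.785 without antibody. In HEK293 it was 0.2665 (S9.6), 0.274 (RNH1), 0.707 (FLAG-MCM8) and 0.887 (IgG). Whether fragile-site genes differ from other genes of like length was not tested. Fhit held 0 WT and 1 shDdx5 peak in 1360 kb of eligible intron, Lrp1b held none in the 4 S9.6 MEF lists in 1805 kb, and PTPRN2 alone gave 16 of the 24 S9.6 peaks of the list. Of 24 genes of mesenchymal identity, adhesion and actin, 23 had eligible intron in mm10. They held 30 of the 902 WT peaks (3.33%), 24 of KO (1.66%), 28 of shControl (1.38%), 19 of shDdx5 (1.24%) and 13 without antibody (1.46%), against 0.790% of the space. Fndc3b held 5 WT peaks and 1 KO peak, Lpp 4 and 7, and Pard3 4 and 2. In HEK293 the list held 0.945% of S9.6 and 0.743% of IgG peaks, against 0.832% of the space. Both lists were chosen with results of these data known, and their shares are descriptions.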

How the data were processed

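CUT&Tag libraries of 5 MEF and 4 HEK293 groups, 1 library each, were deposited as MACS2 peak lists. Per the labels, reads were trimmed with Trimmomatic, aligned with Bowtie2 to mm10 or hg38 and called with MACS2 2.1.2, while the study's methods name another MACS2 version and state that the no-antibody library was not used as input. The deposited columns used were the fold enrichment over the local background, a ratio, and the −log10 p and −log10 q values, each on the authors' own calls per library. Thresholds, filters and depths therefore differ between lists, folds are not compared peak by peak, and no p-value is computed.

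Peaks on the main chromosomes, without the mitochondrial one, were classified with GENCODE M21 and v44, with the shortest gene that met the rule as host. Pileups were solved from fold and p under a Poisson model for every peak with a −log10 p under 250, and the lowest background over the length of the shortest peak gave a rough depth of 5729 to 7001 fragments per Mb in the S9.6 MEF lists, 719.8 without antibody, and 8314 to 11050 in HEK293. Summit windows reached 100 bp to either side, and windows of that length were tiled every 5000 bp over the eligible space. Overlap meant 1 bp in common. Shares carry Wilson, differences Newcombe and count ratios Poisson intervals at 95%, which treat peaks as independent. A difference whose interval excludes no difference is read as larger than counting error. Computations were run under Python 3.11.15 with scipy 1.17.1, and scripts were tested on simulated data.

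The members, gene lists and comparisons were chosen with earlier results of these data known. The limits for tandem repeats (25% of 12-base words) and ribosomal-like windows (40 bases in runs of 20) were chosen after seeing the data. Named sites were the 2 with the highest −log10 q in each list, up to 6 sites in all 4 S9.6 MEF lists by their lowest −log10 q, the 3 highest KO-only ones that met a peak of shDdx5 alone, the 3 highest FLAG-MCM8 peaks that met S9.6 but not IgG peaks, the 3 highest S9.6 peaks without an RNH1 peak, and the 3 genes with the most peaks in each list. Tram2, Fhit, Lrp1b, Fndc3b and Pard3 were named after their values were seen.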

Additional observations from a re-analysis of the deposited data

Results flagged for a closer look

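The 2 MEF contrasts differed in direction for the distal intronic peaks. Their share of the list was higher by 1.18 percentage points in KO against WT and stood at -3.62 points in shDdx5 against shControl. Their number was 1.61 times as high in KO as in WT and 0.751 times as high in shDdx5 as in shControl. With 1 library a group the difference between the contrasts was not tested, and both values depend on the peak threshold.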

How the results depend on the processing

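The 16 comparisons were recomputed under 11 settings and a setting chosen after seeing the data (tandem-repeat windows left out), which gave 163 values. Of these, 12 kept their direction but no longer excluded no difference, 14 turned where the reported or the new interval excluded it, and 0 came to exclude it. The other 137 kept their direction and their side of no difference, except that RNH1 minus S9.6, whose interval includes 0 as reported, was 0.106 at a fold of at least 4 and 0.288 with equal numbers of peaks. At a q of 0.05 or lower the KO minus WT share was -0.00718 points, shDdx5 minus shControl -1.24, the shDdx5 over shControl ratio 1.85 and the KO-only minus WT-only overlap with shDdx5-only peaks -0.381. At a q of 1e-05 or lower, where the MEF lists keep few peaks, these were -1.94, -1.11, 3.29 and 8.33, no antibody minus WT was -3.57, the KO over WT ratio 0.857, the KO overlap with WT against other peaks 19.0 (3 of 6 peaks) and that of shDdx5 with shControl -7.72. At a fold of at least 4 the KO minus WT share was -0.354, the shDdx5 over shControl ratio 0.863, FLAG-MCM8 over IgG 0.968 and the KO-only difference 2.49. With equal numbers of strongest peaks (4314 in MEFs and 12497 in HEK293) the KO minus WT share was -1.16, the KO over WT ratio 0.909, RNH1 over S9.6 1.03 and the KO-only difference 0.354. The KO minus WT share was 0.651 at 5 kb and 0.352 at 20 kb from a TSS. The KO-only difference was -1.15 with TSSs of protein-coding genes only, -0.827 with 50% of both peaks in common and -2.07 with peaks within 1 kb counted as overlapping. S9.6 overlap with IgG against other peaks was 0.522 without tandem repeats. The causes were not tested, and fewer peaks enter under the stricter thresholds. No paired analysis was possible because each group was 1 library. Depth differs between lists, so a peak missing from a list may be one that its depth could not call.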
